A study of Mus musculus with 18 samples.

Results

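The genes described here are 35 genes that acinar cells of the pancreas transcribe to make digestive juice, measured in the spleen. They are digestive enzymes, proteins of the granules that store them, and the transcription factors that keep acinar identity. They were listed by name and chosen by their summed level, which had been seen in these spleens, so that level is given only as a description. All 35 were found among 19320 genes of the table. Spleens came from male ICR mice, an outbred stock, aged 10 weeks, with 3 animals in each of 6 groups and 1 library per animal. Con mice received a regular diet and saline, and A10 mice were given AOS, alginate oligosaccharide cut from the alginate of brown algae, at 10 mg/kg. STZ mice received streptozotocin, a toxin of the insulin-producing beta cells used to model type 1 diabetes, and STZ-A10 mice received both. A10-FMT and Con-FMT mice received streptozotocin and then intestinal microbiota, from AOS-dosed donors in A10-FMT and from control donors in Con-FMT, with the donors' intestinal contents pooled. Streptozotocin was thus shared by 12 of the 18 libraries, and Con and A10 were the 6 without it. Values are RPKM, read numbers corrected for gene length and for library size, so levels can be compared between genes.

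Acinar cells pack inactive enzyme precursors into zymogen granules and release them into the gut after a meal. Amylase digests starch, trypsins activate the other precursors, chymotrypsins, elastases and carboxypeptidases cut proteins, and lipase with its cofactor colipase cuts fat. Amylase synthesis is known to depend on insulin, and in rodents with untreated diabetes the pancreas makes less amylase. The tail of the pancreas lies against the spleen. The question put to the data was whether the mixture of acinar transcripts, apart from its amount, differed between groups. In whole tissue, fewer cells of a type and less RNA per cell cannot be told apart.

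Promoters of 4 members are given here because amylase (Amy2a5), trypsin 2 (Prss2) and chymotrypsinogen B1 (Ctrb1) carry the results on make-up, and Prss3 is a trypsin whose level ran apart from that of Prss2. The lines show the 250 bases before the start that RefSeq annotates for each gene, 5′ to 3′ on its own strand, on GRCm38.p6. GENCODE places the starts of Amy2a5 and Prss3 further upstream, so these 2 windows reach into the gene as GENCODE gives it. The windows are chr3:113258700-113258949 on the minus strand (Amy2a5), chr6:41521526-41521775 on the plus strand (Prss2), chr8:111691011-111691260 on the minus strand (Ctrb1) and chr6:41377614-41377863 on the minus strand (Prss3). Capitals mark matches, on either strand, to parts of the PTF1 motif. One part is the E-box, searched as CACCTG. The other is the RBPJL site, searched as TTTCCCA. PTF1 is the complex of PTF1A and RBPJL that drives enzyme genes in acinar cells.
Amy2a5: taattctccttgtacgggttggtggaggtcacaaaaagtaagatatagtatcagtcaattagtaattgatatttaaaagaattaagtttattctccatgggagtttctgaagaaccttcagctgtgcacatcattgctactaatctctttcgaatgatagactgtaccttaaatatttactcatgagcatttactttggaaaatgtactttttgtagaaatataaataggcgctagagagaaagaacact
Prss2: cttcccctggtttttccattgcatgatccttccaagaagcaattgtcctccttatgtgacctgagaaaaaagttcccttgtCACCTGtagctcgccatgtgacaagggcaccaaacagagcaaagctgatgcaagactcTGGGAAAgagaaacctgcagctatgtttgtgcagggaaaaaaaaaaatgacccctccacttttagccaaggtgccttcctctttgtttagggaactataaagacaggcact
Ctrb1: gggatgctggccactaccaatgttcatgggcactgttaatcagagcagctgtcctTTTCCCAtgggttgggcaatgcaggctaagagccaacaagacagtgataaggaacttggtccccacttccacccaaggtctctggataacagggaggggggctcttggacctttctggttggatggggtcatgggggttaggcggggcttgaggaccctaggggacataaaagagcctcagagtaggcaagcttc
Prss3: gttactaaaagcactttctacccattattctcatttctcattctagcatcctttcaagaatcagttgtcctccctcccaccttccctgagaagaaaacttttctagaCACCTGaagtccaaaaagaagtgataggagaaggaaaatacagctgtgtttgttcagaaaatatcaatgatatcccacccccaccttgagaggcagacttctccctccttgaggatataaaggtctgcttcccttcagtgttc
The Prss2 window held an E-box that began 169 bases before the start and an RBPJL site 111 bases before it. Ctrb1 held an RBPJL site 195 bases before the start, Prss3 held an E-box 143 bases before it, and the Amy2a5 window held neither. RefSeq windows were matched for 29 of the 35 genes. The E-box was in 17 of these 29 windows (58.6%) and in 17.2% of all 32851 windows of this length. The RBPJL site was in 5 of 29 (17.2%) against 6.82% of all windows, and both were in 3, Cel, Cela2a and Prss2 (10.3%), against 1.17%. The motifs did not overlap in these windows, and a match is a run of letters and not a measured binding site.

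The 35 genes lie on 12 chromosomes, in the GENCODE M21 annotation of GRCm38. Amy2a5 (chromosome 3, 113247178 to 113258837, minus strand), Prss2 (chromosome 6, 41521787 to 41525079, plus strand) and Ctrb1 (chromosome 8, 111686519 to 111691010, minus strand) are single protein-coding genes of these names. The 6 trypsin genes, Prss1, Prss2, Prss3, Try4, Try5 and Try10, all lie on chromosome 6 among the segments of the T cell receptor beta locus. They are near copies. Of the 35-base windows of the Try5 transcript, 54.6% were also in Try4, and 71.4% of those of Prss3 were in the predicted trypsin gene Gm10334. Of the windows of Prss2 only 18.1% were in any other gene. The Amy2a5 transcript shared 63.6% with each of Amy2a2, Amy2a3 and Amy2a4, which were listed at no more than 0.95 RPKM. It shared 22.3% with Amy2a1, listed at no more than 1.06 RPKM, and 22.0% with Amy2b. Amy2b was 29.33 RPKM in the second A10-FMT spleen, 8.51 in the first Con spleen and at most 1.94 elsewhere. Reads of such copies can be assigned to any of them, so the levels of single trypsin genes and of Amy2a5 are uncertain to that extent. Klk1 and Cela3b each had 42.7% of their windows in other genes, and Cela2a had 26.6%, so the same limit applies to them. None of the windows of Ctrb1, Cpa1, Pnlip, Clps or Cela1 was in another gene.

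The summed level of the 35 genes differed 707-fold between libraries. It was 2720, 451 and 42.8 RPKM in the Con spleens and 79.7, 1066 and 665 in A10. In STZ it was 8053, 3749 and 1799, and in STZ-A10 it was 8146, 8737 and 12767. In A10-FMT it was 251, 30268 and 1601, and in Con-FMT it was 4208, 2555 and 4126. Animals of one group differed 63.5-fold in Con, 13.4-fold in A10, 4.48-fold in STZ, 121-fold in A10-FMT, 1.57-fold in STZ-A10 and 1.65-fold in Con-FMT. Con overlapped with STZ, and A10-FMT held both the highest library and one below every other STZ-treated library. Spleen was present in all libraries, with 11 of 11 spleen markers found (the B cell gene Cd79a and the spleen homeobox gene Tlx1 among them) and a summed marker level of 1787 to 4044 RPKM.

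**Figure D1:**
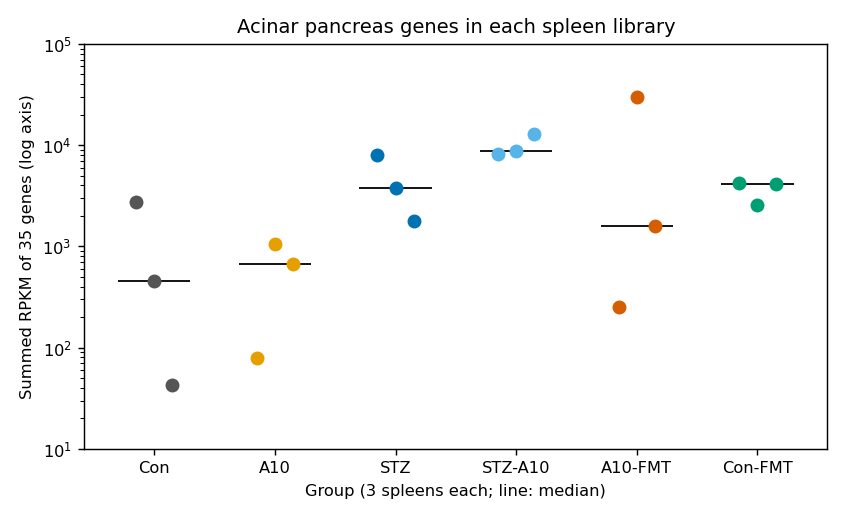
Summed RPKM of the 35 acinar pancreas genes on a log axis, 1 point per spleen library and a line at the median of each group of 3. The level ran from 42.8 in a Con spleen to 30268 in an A10-FMT spleen, and the groups spread far more within Con, A10 and A10-FMT than within STZ-A10 and Con-FMT.

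The proteases gave the largest part of this sum. Ctrb1, the precursor of chymotrypsin B, was the most abundant member, and its level was 437.94, 69.14 and 3.3 in Con, 6.54, 135.27 and 79.18 in A10, 1826.76, 1227.87 and 344.39 in STZ, 1879.96, 1686.78 and 2977.28 in STZ-A10, 38.12, 5389.96 and 266.44 in A10-FMT, and 957.4, 579.9 and 770.86 in Con-FMT RPKM. Try5, a trypsin precursor, was 95.36, 13.34 and 1.39 in Con, 1.22, 31.83 and 25.02 in A10, 1281.46, 367.45 and 224.16 in STZ, 1011.23, 1027.17 and 1658.22 in STZ-A10, 18.66, 2371.53 and 126.39 in A10-FMT, and 511.09, 317.11 and 529.05 in Con-FMT RPKM. Try4, its near copy, was 157.2, 26.43 and 0.32 in Con, 2.34, 55.3 and 27.74 in A10, 587.84, 157.9 and 178.42 in STZ, 650.48, 824.94 and 945.82 in STZ-A10, 17.88, 2587.43 and 128.12 in A10-FMT, and 349.6, 218.79 and 371.3 in Con-FMT RPKM. Every STZ library was above every Con library for Try5, and for Try4 by a narrow margin (157.9 against 157.2). The ranges of Ctrb1 overlapped, since its lowest STZ value of 344.39 lay under the highest Con value of 437.94. Prss2, the trypsin with the least shared sequence, was 147.76, 23.77 and 0.52 in Con, 3.1, 51.94 and 42.73 in A10, 486.42, 139.68 and 101.25 in STZ, 401.78, 466.78 and 637.61 in STZ-A10, 12.42, 1450.72 and 74.56 in A10-FMT, and 186.89, 110.86 and 245.31 in Con-FMT RPKM, and its STZ and Con values overlapped.

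The elastases are serine proteases related to chymotrypsin. Cela2a was 243.4, 38.5 and 0.64 in Con, 5.41, 99.86 and 63.02 in A10, 434.27, 200.61 and 112.45 in STZ, 573.36, 526.11 and 891.66 in STZ-A10, 16.24, 2433.47 and 120.87 in A10-FMT, and 294.17, 175.08 and 303.72 in Con-FMT RPKM. Cela3b was 114.01, 17.05 and 0.65 in Con, 1.96, 42.75 and 25.35 in A10, 291.37, 175.63 and 79.48 in STZ, 365.94, 368.07 and 576.52 in STZ-A10, 10.78, 1439.52 and 79.19 in A10-FMT, and 232.87, 147.71 and 168.02 in Con-FMT RPKM. Cela1 was 135.25, 30.01 and 15.12 in Con, 15.94, 70.02 and 37.05 in A10, 73.18, 91.45 and 42.21 in STZ, 131.48, 143.18 and 153.39 in STZ-A10, 31.55, 1113.43 and 84.61 in A10-FMT, and 89.7, 65.42 and 53.84 in Con-FMT RPKM. Cela1 had a much narrower range than the other 2, because it stayed at 15.12 RPKM in the Con spleen where Cela2a was 0.64 and Cela3b 0.65. The STZ and Con values of each of the 3 elastases overlapped.

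The carboxypeptidases trim peptides from their ends. Cpa1 was 67.52, 10.43 and 0.48 in Con, 1.36, 25.91 and 16.14 in A10, 147.21, 104.53 and 35.72 in STZ, 202.17, 173.21 and 298.38 in STZ-A10, 4.87, 767.82 and 36.3 in A10-FMT, and 89.11, 48.18 and 79.02 in Con-FMT RPKM. Cpb1 was 67.05, 10.14 and 0.25 in Con, 1.18, 27.57 and 14.89 in A10, 152.49, 38.98 and 46.74 in STZ, 154.67, 195.09 and 296.59 in STZ-A10, 3.8, 560.49 and 29 in A10-FMT, and 51.86, 26.42 and 110.4 in Con-FMT RPKM. Spearman's rho with the sum of the other members over 18 libraries was 0.99 for Cpa1 and 0.971 for Cpb1, and the STZ and Con values of both overlapped.

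Amylase and the lipases digest starch and fat. Amy2a5, the pancreatic amylase, was 477.85, 72.32 and 1.44 in Con, 7.14, 196.61 and 115.18 in A10, 652.85, 241.64 and 119.94 in STZ, 579.38, 878.11 and 729.48 in STZ-A10, 20.52, 3464.96 and 176.47 in A10-FMT, and 171.36, 99.7 and 430.19 in Con-FMT RPKM. Clps, colipase, was 195.92, 31.17 and 0.9 in Con, 3.36, 80.32 and 46.95 in A10, 581.02, 409.78 and 136.64 in STZ, 787.37, 761.95 and 1154.17 in STZ-A10, 16.23, 2399.06 and 125.16 in A10-FMT, and 370.76, 235.6 and 277.87 in Con-FMT RPKM. Pnlip, pancreatic triglyceride lipase, was 133.32, 23.29 and 0.41 in Con, 2.85, 59.12 and 32.3 in A10, 308.72, 118.76 and 83.76 in STZ, 336.08, 395.31 and 629.79 in STZ-A10, 10.61, 1546.59 and 80.54 in A10-FMT, and 163.77, 91.6 and 172.17 in Con-FMT RPKM. The Con spleen with the highest level, 477.85 RPKM of Amy2a5, was above 2 of the 3 STZ spleens for amylase. For Clps the same Con spleen, at 195.92 RPKM, was above only 1 STZ spleen.

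Among the other abundant members, Rnase1, the pancreatic ribonuclease, was 63.63, 9.91 and 0.17 in Con, 1.53, 23.88 and 19.07 in A10, 137.55, 33 and 35.61 in STZ, 136.26, 187.37 and 235 in STZ-A10, 5.66, 658.58 and 33.73 in A10-FMT, and 89.69, 54.28 and 101.66 in Con-FMT RPKM. Sycn, syncollin of the granule membrane, was 71.18, 13.73 and 0.35 in Con, 1.22, 31.32 and 20.19 in A10, 195.91, 92.68 and 41.48 in STZ, 185.14, 191.66 and 239.92 in STZ-A10, 5.53, 648.76 and 40.29 in A10-FMT, and 109.19, 61.51 and 63.46 in Con-FMT RPKM. Zg16, a lectin of zymogen granules, was 68.18, 11.61 and 0.73 in Con, 1.88, 22.63 and 15.06 in A10, 179.43, 72.27 and 32.45 in STZ, 147.16, 171.24 and 253.83 in STZ-A10, 5.43, 702.92 and 36.25 in A10-FMT, and 91.33, 49.7 and 89.39 in Con-FMT RPKM. Each was highest in the second A10-FMT spleen and lowest in the third Con spleen. These 15 genes made up 62.3% to 92.6% of the sum in a library.

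The other 20 members were lower. They include Cel, the bile salt-activated lipase, Pla2g1b, the pancreatic phospholipase A2, the chymotrypsin-like Ctrl and Ctrc, and the lipase-related Pnliprp1. Pnliprp1, Ctrl, Cel, Ctrc, Klk1, Pla2g1b and Prss3 reached 420.29, 568.62, 534.95, 393.18, 173.19, 245.74 and 114.48 RPKM in the second A10-FMT spleen. Gp2, the major granule membrane glycoprotein, ran from 1.64 to 63.22 RPKM, and Pnliprp2, a lipase-related protein, from 0 to 84.9. Pdia2, a protein disulfide isomerase of the pancreas, ran from 1.26 to 32.22, Try10 from 0 to 40.56, and Cuzd1, a granule protein, from 0 to 21.73. Serpini2 reached 9.42, Tmed6 8.94, Prss1 8.48, Erp27 6.87 and Bhlha15 6.58 RPKM. The acinar transcription factors were low even where enzyme levels were highest, with at most 2.44 RPKM for Rbpjl, 0.54 for Ptf1a and 0.18 for Nr5a2. Those 3 did not reach 1 RPKM in 3 libraries and were not tested, which left 32 members tested.

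Most members followed each other closely from animal to animal. The Pearson correlation of a gene's log2(RPKM + 1) with that of the sum of the other members over 18 libraries was 0.95 or more for 20 genes, from 0.954 for Amy2a5 to 0.997 for Clps. It was 0.868 for Cela1, 0.88 for Klk1, tissue kallikrein, and 0.809 for Prss3. It was 0.603 for Ptf1a, 0.583 for Prss1 and 0.516 for Tmed6. The factors Nr5a2 (0.13) and Bhlha15 (-0.063) had the lowest values. Nr5a2 was at most 0.18 RPKM, too low for its r to show whether it followed the enzymes. Bhlha15, which plasma cells also transcribe, was 1.77, 3.43 and 1.35 RPKM in Con and 6.27, 3.77 and 6.58 in A10. With group means removed, r was 0.992 for Try5, 0.979 for Amy2a5, 0.659 for Prss3 and 0.369 for Bhlha15. The genes of a library share its depth and its amount of pancreas RNA, so these values describe the libraries and carry no test.

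**Figure D2:**
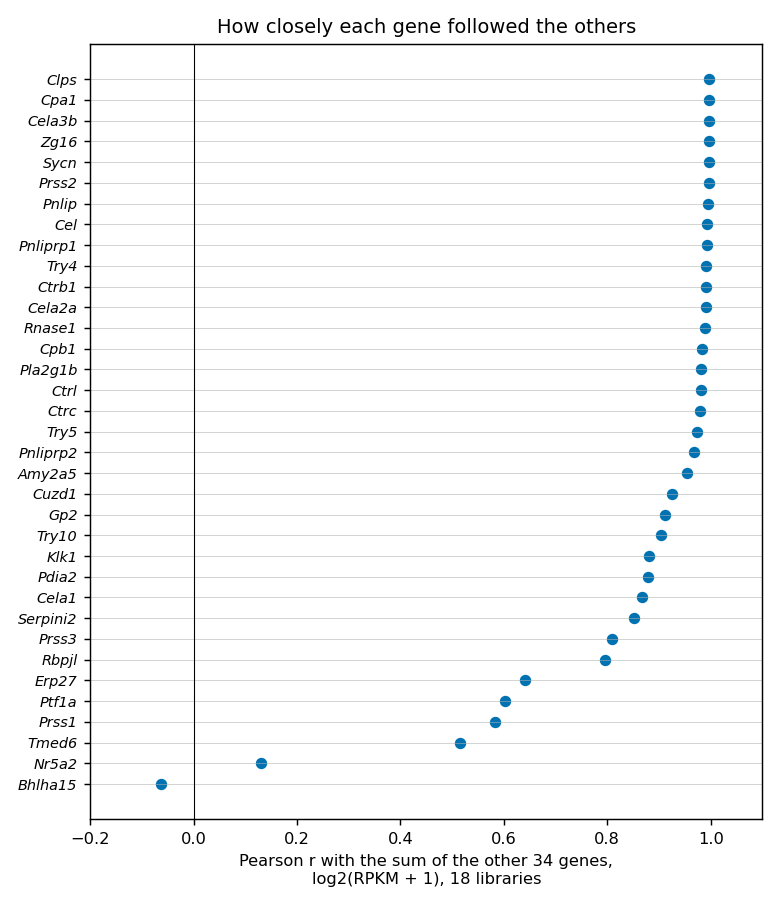
Pearson r of each of the 35 genes with the summed level of the other members, on log2(RPKM + 1) over 18 libraries, sorted from high to low. The enzymes cluster near 1, and Tmed6, Nr5a2 and Bhlha15 lie lowest.

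Other genes followed the summed members as closely. Of 10409 genes outside the list that reached 5 RPKM in a library, 7 had r of 0.9 or more with the summed members. Among them were the trypsin-like 2210010C04Rik (0.998), the regenerating protein genes Reg1 (0.992) and Reg2 (0.903), trefoil factor Tff2 (0.951), Dmbt1 (0.944) and the trypsin inhibitor Spink1 (0.902). Reg3d (0.897), the aquaporin Aqp12 (0.833) and Nupr1 (0.827) came next. The gene 2210010C04Rik ran from 0.44 to 765.87 RPKM.

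In the make-up of the sum, the trypsin share of every spleen with streptozotocin was above that of every spleen without it. The shares of the other protease classes overlapped. Each share below is a percent of the summed RPKM of the 35 genes in a library. Shares add up to a whole, so one can be lower because another is higher. Trypsins were 14.8%, 14.1% and 5.21% in Con and 8.49%, 13.1% and 14.5% in A10. They were 30.0%, 17.9% and 29.4% in STZ, 25.6%, 27.1% and 25.7% in STZ-A10, 19.8%, 21.7% and 21.1% in A10-FMT, and 27.3%, 28.2% and 28.2% in Con-FMT. No library of the 12 with streptozotocin overlapped with the 6 without it. The median Try5 share was 3.12% (1.53% to 3.76%) without streptozotocin and 12.3% (7.43% to 15.9%) with it, again with no overlap. The A10-FMT spleens, at 7.43%, 7.84% and 7.90%, were the 3 lowest of the 12. Prss2 did not show this, with medians of 5.07% and 4.94%.

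**Figure D3:**
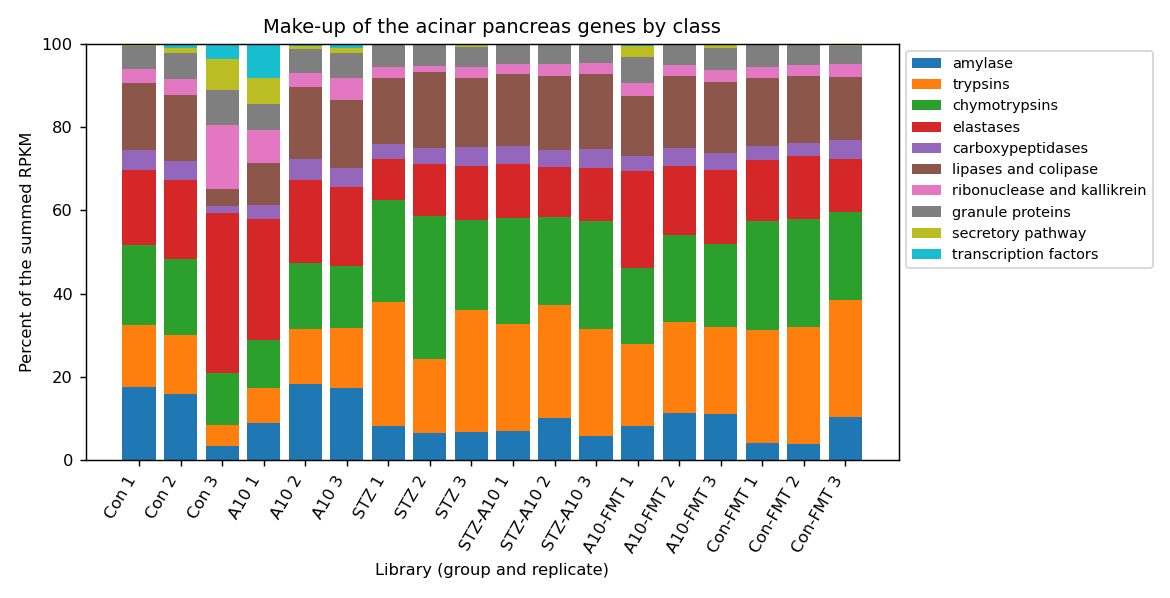
Percent of the summed RPKM of the 35 genes that each class holds, 1 bar per library. Trypsins take at most 14.8% in the Con and A10 bars and at least 17.9% in the other 12, and the third Con and first A10 bars show a large elastase part.

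The levels of the less abundant trypsins were uneven between animals. Prss3 was 1.20, 0.10 and 0 RPKM in Con and 0.11, 0.52 and 0.53 in A10. It was 46.34, 3.90 and 20.95 in STZ, 14.96, 39.56 and 21.85 in STZ-A10, 0.59, 114.48 and 5.69 in A10-FMT, and 87.59, 66.85 and 12.24 in Con-FMT. For each unit of Prss2 there was 0.469 and 0.603 of Prss3 in the first 2 Con-FMT spleens, and 0.0499 in the third. In Con and A10 spleens this ratio was at most 0.0355. The second STZ spleen (0.0279) and the third STZ-A10 spleen (0.0343) lay below that value, so the ranges overlapped. Prss1 was listed at 0 in all 6 spleens without streptozotocin and in 1 A10-FMT spleen, and reached 8.48 RPKM elsewhere. The related predicted trypsins Gm5771, Gm10334, Gm2663 and 1810009J06Rik were at no more than 0.48 RPKM in Con and A10 and reached 43.59, 10.23, 24.89 and 122.34 RPKM in the other groups. Prss1 shared 51.2% of its windows with Gm5771, and Prss3 shared 71.4% with Gm10334, so a read of one may have been counted for another. Gm2663 and 1810009J06Rik were not among the genes that shared most with each member trypsin.

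Chymotrypsins, with Ctrb1 as the largest in each library, had a median share of 15.4% (11.4% to 19.2%) without streptozotocin and 23.0% (18.3% to 34.3%) with it, and overlapped. Ctrb1 alone was the top member in all 12 streptozotocin spleens, with 15.2% to 32.8%. In Con and A10 the top member was Amy2a5 in 4 spleens and Cela1 in 2. Elastases had medians of 19.5% and 13.1% and overlapped. The genes of this class did not all go the same way. Medians without and with streptozotocin were 6.61% and 2.24% for Cela1, and 8.74% and 6.92% for Cela2a. For Cela3b they were 3.8% and 4.5%, and each gene overlapped. As a class, elastases were 38.3% in the third Con spleen and 29.2% in the first A10 spleen, the 2 libraries whose sum was under 100 RPKM. In the third Con spleen Cela1 alone was 35.3% of the sum. The share of Klk1 was lower in all 12 streptozotocin spleens (0.512% to 0.968%) than in the 6 others (1.04% or more), by a narrow margin. It was highest in the third Con spleen, followed by the first A10 spleen (6.06%). Klk1 was still 6.43 and 4.83 RPKM in these 2 spleens, where Prss2 was 0.52 and 3.1. Among libraries with a sum of 100 RPKM or more, the Klk1 share without streptozotocin was 1.04% to 2.6%, still without overlap. Whether Klk1 or Cela1 RNA from cells other than acinar cells raised the Klk1 and elastase shares was not tested. Carboxypeptidases had medians of 4.61% and 4.15%, and lipases with colipase 15.9% and 16.8%.

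Amylase showed the opposite order to Try5 once the low libraries were set aside. The Amy2a5 share was 17.6%, 16.0% and 3.36% in Con, 8.96%, 18.4% and 17.3% in A10, and 3.90% to 11.4% in the 12 others. With all libraries the ranges overlapped, with medians of 16.7% and 7.61%. Among the 16 libraries with a sum of 100 RPKM or more, the 4 without streptozotocin ran from 16.0% to 18.4% and did not overlap with the 12 others. By group the share was 7.07% ± 0.902 (SD, n = 3) in STZ, 7.63% ± 2.21 in STZ-A10, 10.2% ± 1.78 in A10-FMT and 6.13% ± 3.72 in Con-FMT.

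**Figure D4:**
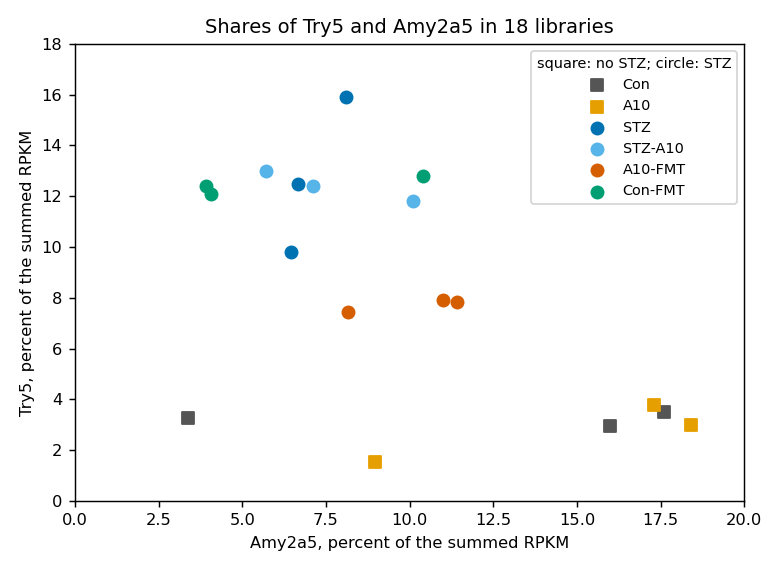
Share of Try5 against share of Amy2a5, each in percent of the summed RPKM of the 35 genes, 1 point per library, squares for Con and A10 and circles for the groups with streptozotocin. All 6 squares lie at a Try5 share of 3.76% or less and all 12 circles at 7.43% or more, and 4 of the squares lie at an Amy2a5 share of 16.0% or more.

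Amy2a5 over Prss2 was tested as a measure of make-up, and whether this ratio varied with the amount of pancreas RNA in a library was not tested. The ratio was 3.23 and 3.04 in Con and 2.30, 3.79 and 2.70 in A10. The third Con spleen (2.77) had 0.52 RPKM of Prss2, under the minimum of 1 RPKM, and was left out of the test. The ratio was 1.34, 1.73 and 1.18 in STZ, 1.44, 1.88 and 1.14 in STZ-A10, 1.65, 2.39 and 2.37 in A10-FMT, and 0.917, 0.899 and 1.75 in Con-FMT. Of the 12 streptozotocin spleens, 10 lay below the lowest of the 5 others, and the exceptions were 2 of the A10-FMT spleens. The mean log2 ratio was 0.57 ± 0.47 (SD, n = 12) with streptozotocin and 1.57 ± 0.27 (SD, n = 5) without it. The difference was -1.0, a ratio 2.0-fold lower with streptozotocin, with p = 0.00097 (two-sided exact permutation test over libraries, 6188 assignments). The test pools groups, treats animals as exchangeable across them, and does not separate streptozotocin from anything else that the 4 groups share. The members were chosen with earlier results of these data known, so the p is not independent evidence.

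**Figure D5:**
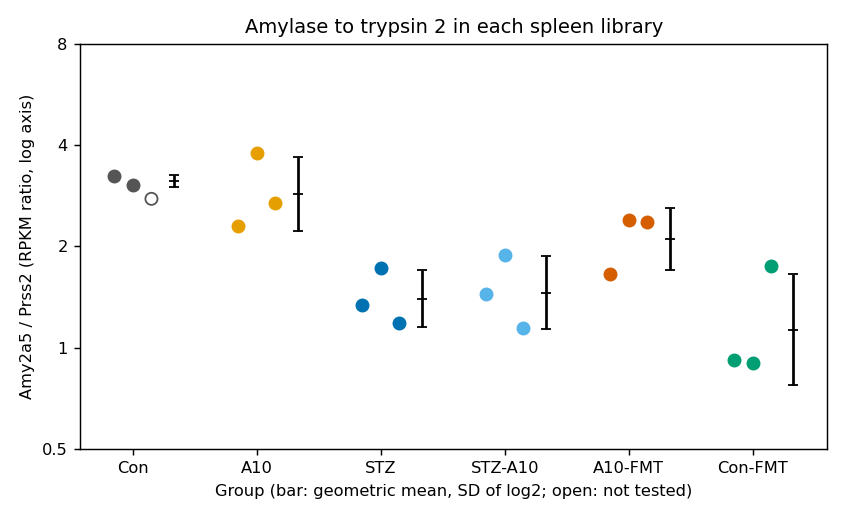
Ratio of Amy2a5 to Prss2 RPKM on a log axis, 1 point per spleen library, with the geometric mean and the SD of the log2 ratio for each group. The open circle is the third Con spleen, left out of the test, and the Con and A10 points from 2.30 to 3.79 lie above all STZ, STZ-A10 and Con-FMT points.

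The ratio was also lower with streptozotocin over 3 denominators that share no sequence with other genes. These ratios use the same Amy2a5 values, so they are not independent of the test over Prss2. Amy2a5 over Pnlip was between 2.51 and 3.58 in the 5 spleens without streptozotocin and at most 2.50 in the 12 with it, a log2 difference of -0.88 (exact permutation p = 0.000323). Over Cpa1 it was between 5.25 and 7.59 in the 5 and between 1.92 and 5.44 in the 12, a difference of -0.98 (exact permutation p = 0.000646). The third Con spleen was left out of both tests, with each denominator under 1 RPKM. Its ratio of 3.51 over Pnlip was above the 12, and its ratio of 3.0 over Cpa1 lay within their range. Over Ctrb1, where the third Con spleen passed the minimum with a ratio of 0.436, the difference was -1.53 (exact permutation p = 0.000646, n = 12 and 6). That spleen lay within the range of the streptozotocin spleens (0.172 to 0.662), so the groups overlapped for this denominator. Single pairs of groups have too few animals to pass a threshold of 0.05, since the smallest p of 3 against 3 is 0.1. The log2 difference in Amy2a5 over Prss2 was 0.59 for A10-FMT against STZ (exact permutation p = 0.2), -0.31 for Con-FMT against STZ (exact p = 0.5) and 0.06 for STZ-A10 against STZ (exact p = 0.8). It was 0.90 for A10-FMT against Con-FMT (exact p = 0.2) and -0.13 for A10 against Con (exact p = 0.8, with 2 Con libraries, where 0.2 is the smallest possible). In STZ against Con it was -1.16 (exact p = 0.2, again the smallest possible). Adjusted over these 6 pairs, the lowest p was 0.4. The pairs share groups and are not independent.

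The amount of each member was also compared between groups with limma across the 12905 genes tested, in a single fit of all libraries on log2(RPKM + 1). None of the 32 members tested passed an adjusted p of 0.05 in any comparison. In STZ against Con 0.163% of all genes passed. In that comparison 31 of 32 members were higher in STZ, with a median log2 fold change of 2.59. The median over the genes tested was -0.01. At an unadjusted p under 0.05 there were 11 members, all higher, and 4.63% of all genes were higher at that level. The lowest adjusted p was that of Try5, with a log2 difference of 4.99 (SE 1.5, adjusted p = 0.164 by limma). Ctrb1 had a log2 difference of 4.17 (SE 1.64, adjusted p = 0.323 by limma) and Amy2a5 2.60 (SE 1.80, adjusted p = 0.677 by limma). The libraries did not overlap for 6 of 32 members, Prss1, Prss3, Pdia2, Gp2, Try4 and Try5, all higher in STZ, as for 5.77% of all genes. Prss1, at 0 in every Con spleen, and Serpini2 reached 1 RPKM in no library without streptozotocin. Both therefore met the filter through streptozotocin libraries alone. With array weights 8 members passed, when 28.8% of all genes did. The list was made with these levels known, so nothing is read from these counts.

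No member passed the adjusted threshold in the remaining comparisons. In A10 against Con, where 0.00775% of all genes passed, 1 member was higher at an unadjusted p under 0.05, as were 3.56% of all genes. This was Bhlha15, higher in A10 by 1.06 on the log2 scale (SE 0.27, adjusted p = 0.35 by limma), and its libraries did not overlap, as for 11.7% of all genes. In STZ-A10 against STZ, where 0.00775% passed, 31 of 32 members were higher, with a median log2 fold change of 1.29. The median over all genes tested was 0.03. Bhlha15 again was the 1 member with an unadjusted p under 0.05, higher by 0.76 on the log2 scale (SE 0.27), and 1.28% of all genes were higher at that level. In a limma fit of only these 2 groups, 19 of 32 members had an unadjusted p under 0.05, as did 3.09% of all genes, and 0 passed the adjusted threshold. In the same kind of fit of STZ against Con, 17 members did, with 8.31% of all genes, and again 0 passed. The libraries did not overlap for 13 of 32 members, among them Pnlip, Cela2a, Cpa1 and Clps, all higher in STZ-A10, as for 3.29% of all genes. In A10-FMT against STZ (0.00775% of all genes passed) the median over the members was -0.31, in Con-FMT against STZ (0.00775%) it was -0.07 and in A10-FMT against Con-FMT (0% passed) it was -0.31. The medians over all genes tested were -0.149, 0.00161 and -0.166, so part of the members' shift was shared by the whole table in the 2 comparisons with A10-FMT. No member had an unadjusted p under 0.05 in those 3 comparisons, where 17.2%, 5.24% and 23.6% of all genes did. None had one in the interaction of streptozotocin and AOS, where 0% of all genes passed the adjusted threshold and 2.86% the unadjusted one. Between the 12 libraries with streptozotocin and the 6 without it, the levels of 0 of 32 members did not overlap, against 0.132% of all genes higher and 0.411% lower. Without the second A10-FMT spleen, 3 members passed in A10-FMT against Con-FMT, all lower in A10-FMT, and 20.3% of all genes passed. With array weights and all libraries 22 did, all lower, with 47.0% of all genes.

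Other genes of the pancreas were summarised from lists. Of 29 further acinar genes 25 were found and 15 tested, and 0 passed in STZ against Con or in any group against STZ. They summed to 85.3 to 205 RPKM in Con and 203 to 680 in STZ, with Xbp1, which plasma cells also use, among them. Of the 6 regenerating protein genes, which acinar cells make under stress, Reg3b passed in STZ against Con and was higher in STZ. Reg1 was 53.05, 8.88 and 0.23 RPKM in Con and 111.24, 36.08 and 46.19 in STZ. Of 9 duct genes 2 were tested and 0 passed, and their sum was 4.47 to 16.0 RPKM in all libraries.

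Insulin transcripts were found in the transplanted groups and in none of the other libraries. Ins2, insulin 2, was 0.21, 19.97 and 1.58 RPKM in A10-FMT and 2.26, 1.72 and 0.22 in Con-FMT. It was listed at 0 in all 12 libraries of Con, A10, STZ and STZ-A10, which include sums of the 35 acinar genes up to 12767 RPKM. Ins1, insulin 1, was 0, 7.89 and 0.69 RPKM in A10-FMT and 0.74, 0.46 and 0 in Con-FMT, and was also listed at 0 in the other 12. Glucagon (Gcg) was 2.78 RPKM in the second A10-FMT spleen and at most 0.36 elsewhere. Amylin (Iapp), which beta cells secrete with insulin, was 2.58 RPKM in that spleen, at most 0.73 in the other transplanted spleens, and at 0 in the other 12 libraries. Among hormone genes of other islet cells, Sst, Pyy and Ppy were at 0 in the other 12 libraries. They reached 0.6, 0.46 and 0.2 RPKM in transplanted spleens. Pyy was above 0 only in the second A10-FMT and second Con-FMT spleens, and Ppy only in the first Con-FMT spleen. Gcg did not follow this, at 0.07 RPKM in every STZ-A10 spleen, the third A10 spleen and the first and second STZ spleens. The islet genes Chga and Chgb were above 0 in some transplanted and some other libraries, at no more than 0.34 RPKM. The islet genes Pcsk1 and Mafa were above 0 in every library, at no more than 0.66 RPKM. In the Con spleen with a summed acinar level of 2720 RPKM Ins2 was listed at 0, and in the A10-FMT spleen with 251 RPKM it was 0.21. In limma, Ins2 differed by 2.01 on the log2 scale in A10-FMT against STZ (SE 0.67, adjusted p = 0.24) and by 1.15 in Con-FMT against STZ (SE 0.67, adjusted p = 0.96), and neither passed. Ins2 met the filter of 1 RPKM only through transplanted libraries and was 0 in every STZ spleen, so nothing is read from these 2 fits. The pattern was noticed after the values were known, and the 6 transplanted libraries were not tested against the 12 others. The labels give no date or batch of dissection or sequencing, so a difference in these cannot be told apart from the transplant.

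Markers of other organs were low or ran differently from the acinar genes. The stomach list summed to at most 1.40 RPKM, the salivary gland list to at most 1.54 and the intestine list to at most 9.58. Salivary amylase Amy1 was 0.30 to 1.39 RPKM. The highest summed level of the fat genes was 8.57 RPKM in the STZ spleens, and the lowest was 25.5 in Con and 93.9 in A10. The other groups overlapped with Con, with sums between 14.2 and 63.4 RPKM in STZ-A10. They lay between 29.0 and 88.8 in A10-FMT. In Con-FMT they lay between 7.72 and 125. No STZ or STZ-A10 spleen had more than 22.1 RPKM of summed liver genes, and no Con, A10 or A10-FMT spleen had less than 22.8. Con-FMT, at 15.6 to 43.4 RPKM, lay on both sides of these limits. The acinar sum was 1799 RPKM or more in those STZ and STZ-A10 spleens. The part of these tissues in the differences between groups was not tested.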

How the data were processed

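Messenger RNA selected with oligo(dT) beads from 18 spleens was sequenced on an Illumina HiSeq instrument. Per the study's methods, the authors aligned reads to reference genes with SOAPaligner and computed RPKM. The submitters' processing notes name mm10 and Bowtie 0.12.2. The deposited table holds RPKM only, so depth is unknown, no counting interval can be given, and values under 1 RPKM rest on few reads. How reads that fit several genes were counted was not established here, which matters for trypsin and amylase copies. Of 19326 lines, 6 with 3 repeated names were left out, and 0 columns were unused. Column sums ran from 673428 to 884832 RPKM, and 11532 to 12893 genes reached 1 RPKM.

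Groups came from the labels. limma 3.58.1 (trend, R 4.3.3) was fitted to log2(RPKM + 1) of all libraries, with a term per group, on 12905 genes at 1 RPKM or more in 3 libraries, and p-values were adjusted by Benjamini-Hochberg over all of them. Fold changes on this scale understate those of low genes. The 6 comparisons and the interaction share libraries. The ratio was tested with scipy 1.17.1, over libraries with both genes at 1 RPKM or more. Shares were described in libraries with a sum of 20 RPKM or more, which was all 18. The 15 members with the largest sums were given in full. Scripts were tested on simulated data. The members and gene lists were chosen with earlier results of these data known. Alternatives covered normalization, filters, pseudocount, trend, weights, libraries, block, denominators and minimum sums. Promoters and positions come from RefSeq (GRCm38.p6) and GENCODE M21 (GRCm38), and only the 250 bases before each start were searched. Some items are not reported here.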

Additional observations from a re-analysis of the deposited data

How the results depend on the processing

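The number of members past the adjusted threshold stayed at 0 in all 6 comparisons under quantile normalization, other filters, a pseudocount of 0.1, fits of only the groups compared, and limma without trend. Array weights, estimated gene by gene because the usual estimate did not converge (chosen after seeing the data), moved it to 8 in STZ against Con, 1 in A10 against Con, 3 in A10-FMT against STZ, 1 in Con-FMT against STZ and 22 in A10-FMT against Con-FMT, where 28.8%, 10.3%, 16.6%, 18.3% and 47.0% of all genes then passed. Leaving out each library in turn gave 0 to 3 in A10-FMT against Con-FMT (3 without A10-FMT replicate 2) and 0 in the other comparisons. The difference in the log2 ratio of Amy2a5 to Prss2 kept its sign and stayed past the threshold in 24 of 25 alternatives, from -1.092 to -0.912 (highest p = 0.0033, exact permutation) when single libraries were left out. With STZ against Con only it was -1.163 (exact permutation p = 0.2, the smallest possible). The difference in mean share of the carboxypeptidases, 0.000833 percentage points, changed sign with single libraries (-0.461 to 0.201), and no direction is given for it. Shares of reads were not computed, because the table gives no gene lengths. With the replicate number as a block, 0 members passed in every comparison, and the ratio difference was -1.0 (p = 0.000889, exact permutation within replicate numbers). The numbers were to be taken as pairs only where the deviations of same-numbered libraries correlated above 0.1 for all 3 numbers, and no comparison met this (r of -0.146, -0.00797 and -0.00672 in STZ against Con, and 0.571, 0.0441 and 0.429 in STZ-A10 against STZ).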
